A study of Mus musculus with 6 samples.

Results

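Polycomb repressive complexes silence developmental genes by modifying histones, and the subunits described here make up the best known of them in mouse embryonic stem cells (ESCs). They were chosen by gene symbol, as the core and accessory subunits Ezh1, Ezh2, Eed, Suz12, Jarid2, Mtf2, Phf19, Rnf2, Cbx7 and Kdm2b. These are 10 of the 52636 genes in the count table, and all 10 were among the 17849 genes with enough counts to be tested.

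RNA was sequenced from embryoid bodies (EBs), aggregates of ESCs that begin to differentiate once leukemia inhibitory factor is withdrawn. Cells of the mouse ESC line E14 were kept for 3 days in hanging drops, then plated on gelatin for another 3 days in a medium for which that factor is not listed. The 3 WT samples came from the parental E14 line, and the 3 Tnfaip2-/- samples from an E14 clone in which CRISPR/Cas9 had introduced a frameshift in Tnfaip2, with no treatment in either group. The comparison asks how the transcriptomes of the 2 genotypes differ at this time, and the totals were 22987433, 22489903 and 23804489 counts in WT and 22480962, 21765931 and 21986960 counts in Tnfaip2-/- samples. A single edited clone was compared with its parental line, so that the edit and any other difference between these lines cannot be told apart. The study's methods call the replicates biological, but the labels do not say whether they were grown as separate cultures. They are not independent clones, and p-values measure only the spread between these samples.

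Polycomb repressive complex 2 (PRC2) methylates lysine 27 of histone H3 through Ezh1 or Ezh2, with Eed and Suz12 as partners that the enzyme needs. Accessory proteins divide it into PRC2.1, with a Polycomb-like protein such as Mtf2, Phf19 or Phf1, and PRC2.2, with Jarid2 and Aebp2. Polycomb repressive complex 1 (PRC1) ubiquitinates histone H2A through Rnf2 or Ring1, in canonical forms that read the PRC2 mark through a Cbx protein and in variant forms such as the one that Kdm2b brings to unmethylated CpG-rich DNA.

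Tnfaip2, the edited gene, had 7, 4 and 7 counts in WT and 0, 2 and 2 counts in Tnfaip2-/- EBs. Every WT sample was above every Tnfaip2-/- sample, but the gene was close to the limit of detection in both groups and below the filter on low counts. With so few counts no fold change is given, and how much transcript the edited clone kept was not detectable at this depth.

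Of the 10 subunits, 6 were called higher in Tnfaip2-/- EBs, 2 were called lower and 2 were not called, at an adjusted p below 0.05 in the quasi-likelihood test of edgeR. Across all genes tested, 34.0% were called higher, 33.7% lower and 67.7% in either direction. Most genes were thus called in this comparison, and a call by itself sets a subunit little apart from other genes. The sizes of the changes differed far more between the subunits than their calls. Phf19 rose about 9.26-fold and Kdm2b fell by 0.95 on the log2 scale, whereas the log2 fold changes of the other 8 subunits were at most 0.36 in size. The median of the absolute log2 fold changes was 0.15 over the 10 subunits and 0.30 over all genes tested. The CPM values (counts per 1000000 counts, with TMM scaling) of the 2 groups did not overlap for 8 of the 10 subunits, against 69.4% of all genes tested. In bulk RNA, fewer cells that express a gene and less RNA of it per cell cannot be told apart.

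**Figure D1:**
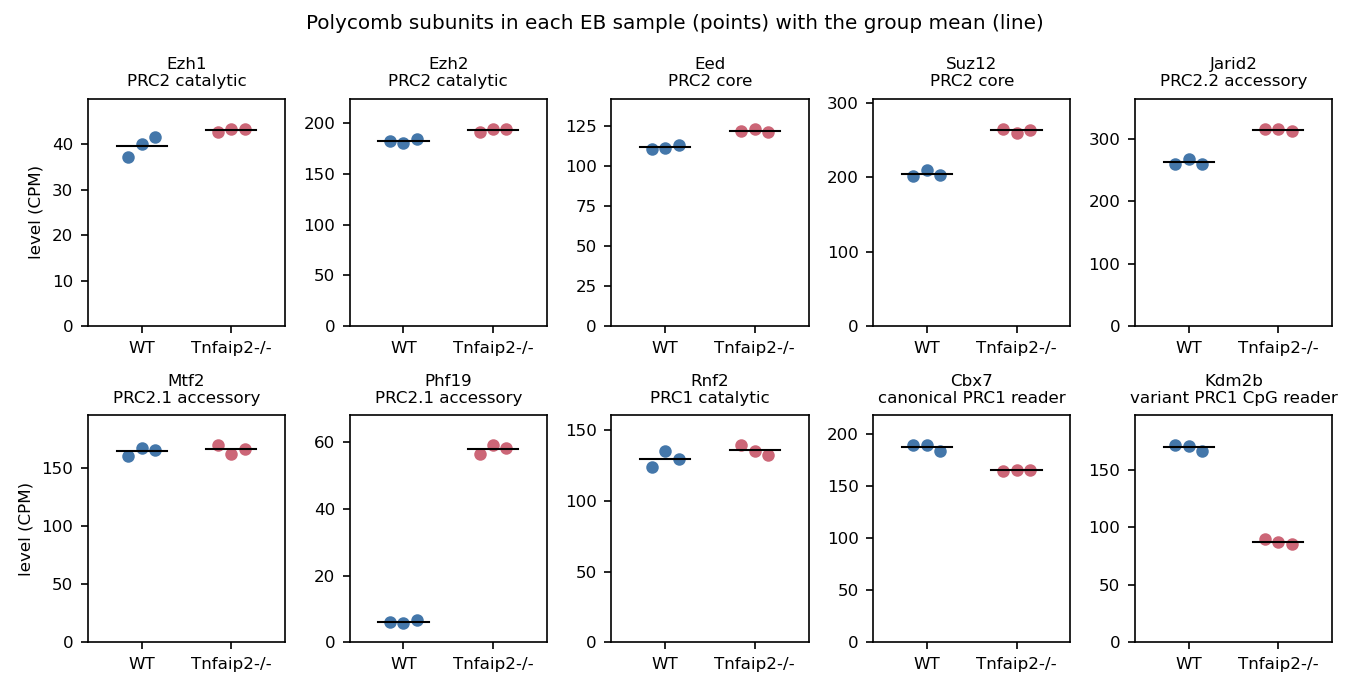
Level of each of the 10 Polycomb subunits in CPM (vertical axis, starting at 0) in the 3 WT and the 3 Tnfaip2-/- samples, with each sample as a point and the group mean as a line. Phf19 lay below 7 CPM in WT and above 56 CPM in Tnfaip2-/- samples, Kdm2b fell, and the points of Mtf2 and Rnf2 overlapped between genotypes.

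Of the 4 described subunits of the PRC2 core, Suz12 changed most. Suz12, the scaffold that holds the enzyme and its accessory proteins (ENSMUSG00000017548, chromosome 11, 79993106 to 80034123 on the forward strand in GRCm38), was at 201, 210 and 203 CPM in WT and at 265, 260 and 263 CPM in Tnfaip2-/- samples. The groups were widely apart relative to their spread, with a log2 fold change of 0.36 (SE 0.0265, edgeR adjusted p = 1.59e-16), higher in 3 of 3 Tnfaip2-/- samples than in any WT sample. Eed, which binds trimethylated lysine 27 and stimulates the enzyme, was at 110, 111 and 113 CPM in WT and at 121, 123 and 121 CPM in Tnfaip2-/- samples. The groups did not overlap, though the difference was small, with a log2 fold change of 0.13 (SE 0.0305, edgeR adjusted p = 0.000261).

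The catalytic subunits themselves hardly moved. Ezh2, the main methyltransferase of dividing cells (chromosome 6, 47530139 to 47595341), was at 183, 181 and 185 CPM in WT and at 191, 195 and 195 CPM in Tnfaip2-/- samples. All Tnfaip2-/- values were above all WT values, by a log2 fold change of 0.08 (SE 0.0271, edgeR adjusted p = 0.00687). Ezh1, the less active form that predominates in resting cells (chromosome 11, 101191115 to 101226463), was at 37.2, 40.1 and 41.7 CPM in WT and at 42.7, 43.5 and 43.3 CPM in Tnfaip2-/- samples. The highest WT sample lay just under the lowest Tnfaip2-/- sample, and the log2 fold change was 0.12 (SE 0.0457, edgeR adjusted p = 0.0174). Both calls rest on the settings. Ezh1 was no longer called without WT replicate 1 (log2 fold change 0.07, adjusted p = 0.238) or without Tnfaip2-/- replicate 3 (0.11, adjusted p = 0.0629), nor with DESeq2 (0.11, adjusted p = 0.132) or without the filter on low counts (0.10, adjusted p = 0.064), and its adjusted p ranged from 0.00448 to 1 over all alternatives. Ezh2 was no longer called without Tnfaip2-/- replicate 3 (0.07, adjusted p = 0.0592) or without the filter on low counts (0.06, adjusted p = 0.0529), within a range from 0.000547 to 1. The upper end of these ranges comes from a test against a fold change of 1.5, which of the 10 subunits only Phf19 and Kdm2b passed.

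Rbbp4 and Rbbp7, histone-binding proteins that PRC2 shares with other chromatin complexes, complete the core list, and they moved in opposite directions. Rbbp4 fell from 689, 683 and 731 CPM to 530, 538 and 533 CPM, a log2 fold change of -0.39 (SE 0.0248, edgeR adjusted p = 1e-18). Rbbp7 rose from 299, 301 and 295 CPM to 381, 385 and 374 CPM, a log2 fold change of 0.35 (SE 0.0248, edgeR adjusted p = 6.9e-17). Of the exon windows of 51 bases, the read length, 17% of Rbbp4 and 11% of Rbbp7 also occur in other genes. On the opposite strand, 8.94% of the exon bases of Rbbp4 overlap Sync and 9.1% Gm26722, and 5.98% of those of Rbbp7 overlap Txlng.

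The largest change of any subunit was in PRC2.1. Phf19, a Polycomb-like protein whose Tudor domain binds methylated lysine 36 of histone H3 (ENSMUSG00000026873, chromosome 2, 34893757 to 34914026 on the reverse strand), had 142, 131 and 156 counts in WT and 1281, 1297 and 1294 in Tnfaip2-/- EBs. On the CPM scale these were 6.27, 5.85 and 6.64 in WT and 56.4, 59.2 and 58.3 in Tnfaip2-/- samples. The replicates of each genotype agreed closely, and the gap between the groups was many times their spread, with a log2 fold change of 3.21 (SE 0.0619, edgeR adjusted p = 1.05e-38). Leaving out each sample in turn gave values from 3.16 to 3.25. By the absolute log2 fold change, Phf19 ranked 47 among the 15711 tested genes that averaged 1 CPM or more, whereas Kdm2b ranked 1587 and Suz12 ranked 6176. No exon of Phf19 overlaps another annotated gene, and none of its exon windows of 51 bases occurs in another gene. Among the other subunits, genes on the opposite strand overlap 6.82% of the exon bases of Eed, 6.93% of Mtf2 and 3.83% of Rnf2. They overlap 3.6% of those of Suz12, 2.61% of Ezh2 and 1.54% of Cbx7, and Kdm2b is described below.

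Phf19 and Suz12 rose most among the 10 subunits, and their upstream sequences are shown because they share a word. RefSeq promoters (GRCm38.p6) were found for 10 of the 10 genes, and the 200 bases that end 50 bases before the RefSeq start were compared. The longest word that Phf19 and Suz12 have in common in these windows, on either strand, has 14 bases, AATTCGCGGGAAAA or its reverse complement TTTTCCCGCGAATT, and is set in capitals. The Phf19 window is chr2:34914027-34914226 on the reverse strand and the Suz12 window is chr11:79992856-79993055 on the forward strand, each written 5′ to 3′ along its gene.
Phf19: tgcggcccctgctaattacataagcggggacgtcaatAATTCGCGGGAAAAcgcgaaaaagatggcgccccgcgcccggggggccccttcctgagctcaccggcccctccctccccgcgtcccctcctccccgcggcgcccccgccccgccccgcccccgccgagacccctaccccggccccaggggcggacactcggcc
Suz12: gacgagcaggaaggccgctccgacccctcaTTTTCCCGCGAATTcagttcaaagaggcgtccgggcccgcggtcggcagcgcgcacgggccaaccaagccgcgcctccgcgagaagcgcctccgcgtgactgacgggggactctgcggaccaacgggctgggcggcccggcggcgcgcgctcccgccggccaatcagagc
The word begins 213 bases before the RefSeq start of Phf19 and, on the opposite strand, 220 bases before that of Suz12. It occurred in 2 of the 32851 RefSeq promoter windows of this length, the 2 it was taken from. It contains GCGGGAAA (TTTCCCGC on the other strand), a form of the motif that E2F factors bind, which was present in 227 of these windows (0.691%) and in those of 2 of the 10 subunits. Of the 174 tested genes with GCGGGAAA in a window, 60 (34.5%) were called higher and 76 (43.7%) lower, with a median log2 fold change of -0.04, beside 34.0%, 33.7% and a median of 0.003 among all genes tested. The word and the motif were picked after the values were seen, and a match in a sequence describes the sequence alone.

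Of the other Polycomb-like genes, Mtf2 was not called and Phf1 was called higher, with a much smaller log2 fold change than Phf19. Mtf2, the Polycomb-like protein that is most abundant in ESCs (chromosome 5, 108065674 to 108109004), was at 161, 167 and 166 CPM in WT and at 170, 162 and 166 CPM in Tnfaip2-/- samples. These values overlap, and the log2 fold change of 0.01 (SE 0.0288, edgeR adjusted p = 0.699) changed sign to -0.013 without WT replicate 1, to -0.0055 without Tnfaip2-/- replicate 1 and to -0.0056 without the filter on low counts. Phf1, the remaining paralogue, was at 10.4, 11.3 and 9.11 CPM in WT and at 13.1, 15.6 and 14.9 CPM in Tnfaip2-/- samples. Its groups did not overlap, with a log2 fold change of 0.51 (SE 0.0808, edgeR adjusted p = 4.28e-07), but 39.3% of its exon bases also belong to Cuta on the opposite strand, and libraries of this kit do not tell the strands apart.

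The patterns most like that of Phf19 were found among the tested genes that averaged 1 CPM or more, by the root mean square difference of log2 CPM values centred on the WT mean over 6 samples. The closest was Wfdc2, with a difference of 0.0709, which had 360, 344 and 379 counts in WT and 3105, 3141 and 2996 in Tnfaip2-/- samples. Gm21761 came next (0.0952), with 22, 24 and 25 counts in WT and 227, 208 and 200 in Tnfaip2-/- samples, a log2 fold change of 3.19 (SE 0.14). Faim2 (0.143) had only 5, 5 and 6 counts in WT and 38, 46 and 49 in Tnfaip2-/- samples, a log2 fold change of 3.06 (SE 0.295), and averaged 1 CPM or more only through the Tnfaip2-/- samples.

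Beside the Polycomb-like genes, the PRC2.1 list held Epop, Lcor and Lcorl. Epop, which links PRC2.1 to elongin, fell from 149, 149 and 141 CPM in WT to 92.0, 98.2 and 101 CPM, a log2 fold change of -0.59 (SE 0.0333, edgeR adjusted p = 1.26e-20). Lcorl fell from between 19.4 and 20.6 CPM to between 12.6 and 14.4 CPM, a log2 fold change of -0.53 (SE 0.0667, edgeR adjusted p = 1.8e-09). Its relative Lcor was not called, with a log2 fold change of -0.03 (SE 0.171, edgeR adjusted p = 0.879) at 2.46 CPM or less in every sample, and was picked after its value was seen.

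Both genes of PRC2.2 were called higher, as were 34.0% of all genes tested. Jarid2, a demethylase relative without enzyme activity that helps PRC2 engage chromatin (chromosome 13, 44729474 to 44921643), was at 260, 268 and 261 CPM in WT and at 315, 317 and 313 CPM in Tnfaip2-/- samples. All Tnfaip2-/- samples were higher than all WT samples, with a log2 fold change of 0.26 (SE 0.0254, edgeR adjusted p = 1.33e-12). Aebp2, its zinc finger partner, was at 93.7, 96.0 and 89.9 CPM in WT and at 155, 136 and 145 CPM in Tnfaip2-/- samples. The Tnfaip2-/- samples were again the high ones, with a log2 fold change of 0.64 (SE 0.0363, edgeR adjusted p = 4.22e-19). Ezhip, which inhibits PRC2 and is best known from germ cells, had 42, 46 and 41 counts in WT and 123, 111 and 114 counts in Tnfaip2-/- samples. It stayed at a low level in both genotypes while its log2 fold change was 1.47 (SE 0.14, edgeR adjusted p = 8.74e-13).

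**Figure D2:**
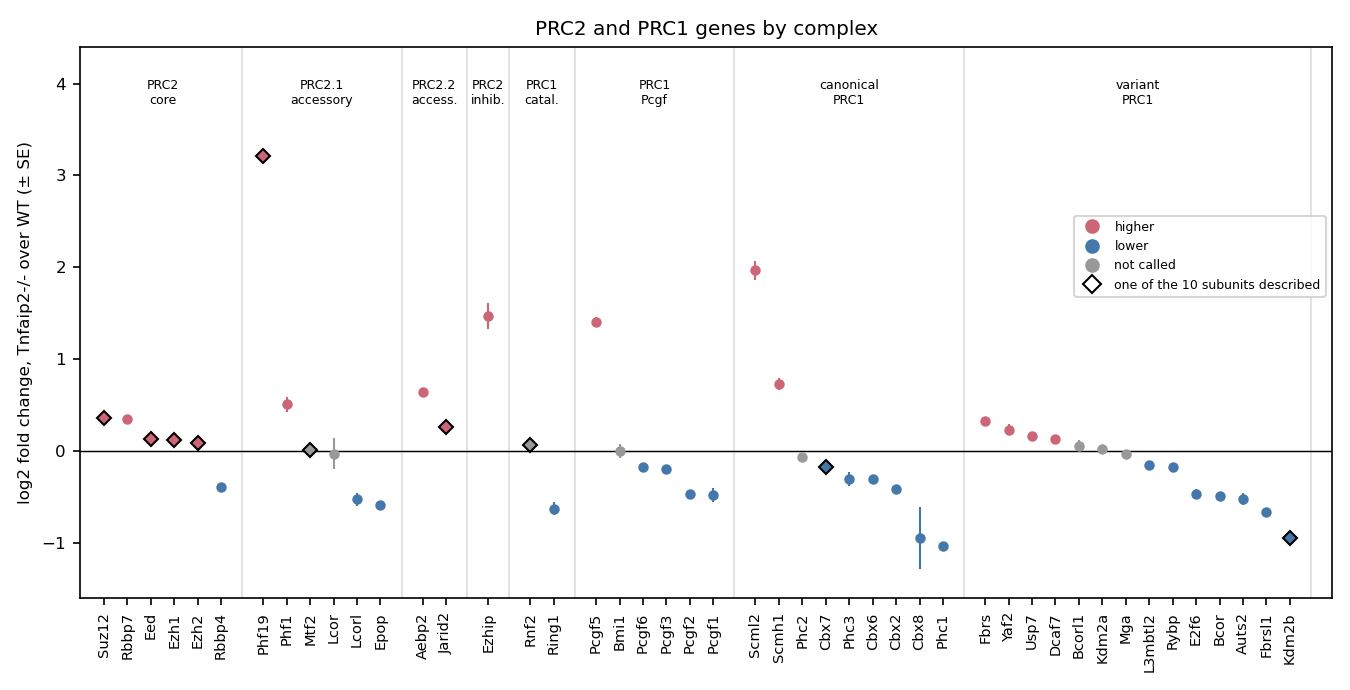
Log2 fold change (Tnfaip2-/- over WT, vertical axis, with the SE as bars) of the PRC2 and PRC1 genes that passed the filter, grouped by complex, with the 10 subunits as diamonds outlined in black. Phf19 at 3.21 stands above all others shown, and Kdm2b (-0.95), Cbx8 (-0.95) and Phc1 (-1.04) are the lowest.

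In PRC1, the catalytic subunit Rnf2 was not called. Rnf2, also known as RING1B (chromosome 1, 151458004 to 151500955), was at 124, 136 and 130 CPM in WT and at 140, 135 and 133 CPM in Tnfaip2-/- samples. The ranges overlap, and the log2 fold change was 0.06 (SE 0.0318, edgeR adjusted p = 0.0692), although the gene was called without WT replicate 2 (0.09, adjusted p = 0.0157) and with upper quartile scaling (0.09, adjusted p = 0.0125), within a range of adjusted p from 0.0125 to 1. Ring1, its paralogue, fell from 17.2, 19.1 and 19.2 CPM to 12.0, 11.7 and 12.1 CPM. All Tnfaip2-/- samples were lower than all WT samples, with a log2 fold change of -0.63 (SE 0.0691, edgeR adjusted p = 4.65e-11).

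Cbx7, the chromodomain protein that reads trimethylated lysine 27 in most canonical PRC1 of ESCs (chromosome 15, 79915807 to 79971119), was at 189, 190 and 184 CPM in WT and at 165, 166 and 166 CPM in Tnfaip2-/- samples. The Tnfaip2-/- samples were lower without overlap, with a log2 fold change of -0.18 (SE 0.0277, edgeR adjusted p = 2.02e-07). Of its paralogues, Cbx2 and Cbx6 fell too, by log2 fold changes of -0.42 (edgeR adjusted p = 1.63e-10) and -0.31 (edgeR adjusted p = 3.6e-10). Cbx8 had 16, 13 and 21 counts in WT and 9, 10 and 6 counts in Tnfaip2-/- samples. These few counts gave a log2 fold change of -0.95 (SE 0.34, edgeR adjusted p = 0.0124), and the call was lost without WT replicate 3 (-0.78, adjusted p = 0.0745), without Tnfaip2-/- replicate 3 (-0.78, adjusted p = 0.0689) and with DESeq2 (-0.97, adjusted p = 0.12), within a range from 0.00909 to 0.255. Thus Cbx2, Cbx6, Cbx7 and Cbx8 were each called lower, under TMM, RLE and upper quartile scaling alike.

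The polyhomeotic genes, whose proteins let canonical PRC1 polymerise, included the largest fall in log2 fold change among the PRC1 and PRC2 genes. Phc1 was at 692, 692 and 662 CPM in WT and at 332, 331 and 334 CPM in Tnfaip2-/- samples. Each Tnfaip2-/- sample held less than any WT sample by a wide margin, with a log2 fold change of -1.04 (SE 0.0246, edgeR adjusted p = 4.17e-35). Phc3 fell less, with a log2 fold change of -0.30 (edgeR adjusted p = 0.000708), and Phc2 was not called (-0.07, edgeR adjusted p = 0.125). Both are named after their values were seen. Unlike Phc1, the SCM genes rose: Scml2 had 62, 84 and 75 counts in WT and 282, 283 and 278 in Tnfaip2-/- samples. Its log2 fold change was 1.97 (SE 0.103, edgeR adjusted p = 9.05e-22), and Scmh1 rose as well, by 0.73 (SE 0.064, edgeR adjusted p = 6.28e-14).

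Kdm2b showed the largest fall among the 10 subunits. Kdm2b, a CpG-binding protein with a demethylase domain that recruits the variant complex PRC1.1 (ENSMUSG00000029475, chromosome 5, 122870665 to 122989823 on the reverse strand), had 3893, 3832 and 3906 counts in WT and 2048, 1908 and 1899 counts in Tnfaip2-/- samples. On the CPM scale these were 172, 171 and 166 in WT and 90.1, 87.1 and 85.6 in Tnfaip2-/- samples. The genotypes were far apart with little spread within each, and the log2 fold change was -0.95 (SE 0.031, edgeR adjusted p = 1.03e-29), from -0.98 to -0.95 when each sample was left out in turn. Its exons share 5.77% of their bases with Rnf34 and 1.83% with A930024E05Rik, both on the opposite strand and both lower too, with log2 fold changes of -0.74 and -1.13, and 1.14% with Gm44574 on the same strand. Of its exon windows of 51 bases, 12.5% also occur in other genes, mainly Rnf34, the pseudogene Gm12397 and A930024E05Rik. Counts per gene do not separate the long form of Kdm2b from the short form that starts inside the gene and lacks the demethylase domain. Kdm2a, the paralogue, was at 121, 117 and 115 CPM in WT and at 122, 117 and 118 CPM in Tnfaip2-/- samples. These values overlap, with a log2 fold change of 0.02 (SE 0.0313, edgeR adjusted p = 0.597) that changed sign to -0.0081 without WT replicate 3 and to -0.00083 without Tnfaip2-/- replicate 1.

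Partners of Kdm2b in PRC1.1 differed in direction. Pcgf1, its PCGF protein, fell from 15.1, 15.4 and 14.6 CPM to 10.0, 11.5 and 10.8 CPM, a log2 fold change of -0.48 (SE 0.0737, edgeR adjusted p = 1.72e-07), and 15% of its exon windows also occur in a pseudogene. Bcor, its corepressor, was lower by a log2 fold change of -0.50 (SE 0.0375, edgeR adjusted p = 4.65e-16) and was picked after its value was seen, while Bcorl1, also picked by value, was not called (0.05, edgeR adjusted p = 0.468). Usp7 (0.17, edgeR adjusted p = 1.64e-07) and Yaf2 (0.23, edgeR adjusted p = 0.000413) were called higher, and Rybp (-0.18, edgeR adjusted p = 2.48e-07), the alternative to Yaf2, was called lower. These 3 genes too were picked by value. Among the other PCGF genes, which define the forms of PRC1, Pcgf2 fell by 0.47 on the log2 scale (edgeR adjusted p = 1.06e-15), and Pcgf5 had 308, 345 and 361 counts in WT and 888, 840 and 882 in Tnfaip2-/- samples. Pcgf5 was thus the PCGF gene that rose, by a log2 fold change of 1.40 (SE 0.0564, edgeR adjusted p = 4.28e-26), against 4 that fell and Bmi1, which was not called and is named after its value was seen. Of all genes tested, 34.0% were called higher and 33.7% lower.

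The subunits were next compared with each other by level, as counts per kilobase of merged exons scaled to a sum of 1000000 in each sample. In WT EBs, Suz12 was highest on this per-length scale, at 92.3 ± 3.56 (SD, n = 3), followed by Rnf2 at 70.3 ± 4.16 and Eed at 65.0 ± 1.18. Cbx7 (64.5), Mtf2 (64.4), Ezh2 (61.1) and Jarid2 (60.4) came next, and the samples of Eed and Cbx7, of Cbx7 and Mtf2, and of Ezh2 and Jarid2 overlapped. Kdm2b at 34.8 ± 1.01, Ezh1 at 11.9 ± 0.749 and Phf19 at 2.77 ± 0.136 per-length units closed the order, each apart from its neighbour. In Tnfaip2-/- EBs the per-length level of Suz12 was 122 ± 2.5 and again the highest, while Phf19 at 26.4 ± 0.459 had passed both Kdm2b at 18.5 ± 0.584 and Ezh1 at 13.3 ± 0.0844. Between them lay Rnf2 (75.5), Jarid2 (74.4), Eed (73.0), Mtf2 (66.8), Ezh2 (66.5) and Cbx7 (58.5), of which Rnf2 overlapped with Jarid2, and Mtf2 with Ezh2.

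The order depends on the length that is used. With the longest transcript in place of merged exons, the per-length level of Ezh2 in WT was 120 rather than 61.1 and led the order, since 2.79 kb took the place of 6.68 kb. Kdm2b then stood at 31.6 and Phf19 at 29.0 in Tnfaip2-/- EBs, so that their order was turned. Phf19 was last in WT with either length, and above Ezh1 in Tnfaip2-/- EBs with either length.

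**Figure D3:**
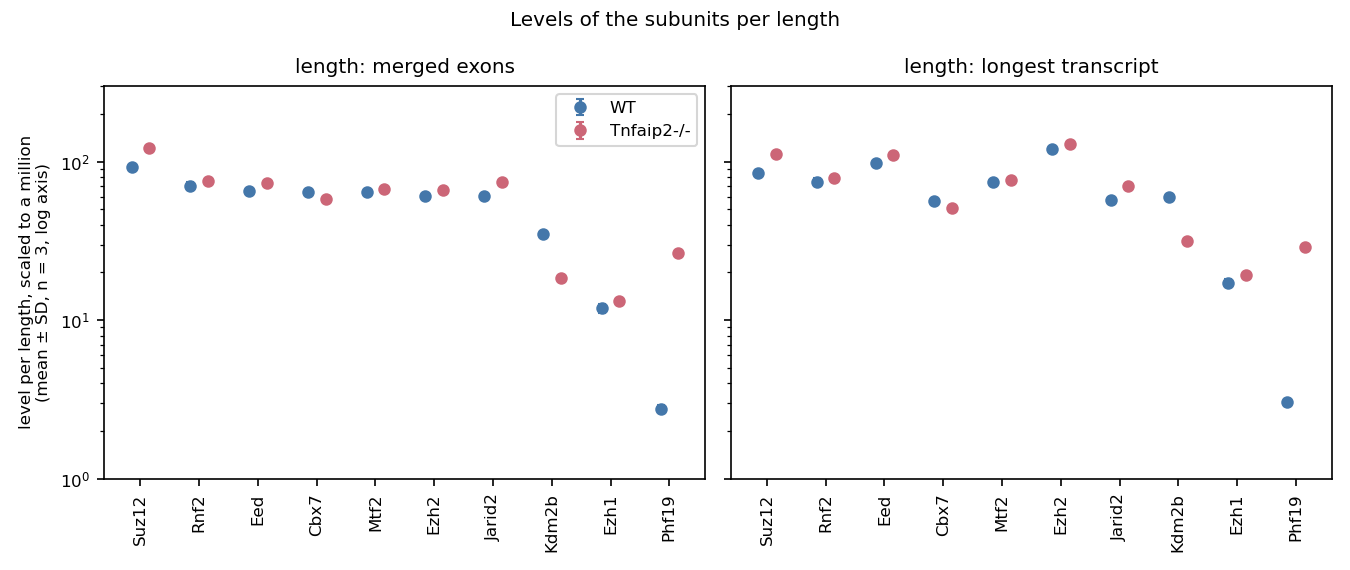
Per-length level (log axis, scaled to a sum of 1000000, mean with SD over 3 samples as bars, many smaller than the points) of the 10 subunits in WT and Tnfaip2-/- EBs, with merged exons (left) or the longest transcript (right) as the length. Phf19 moves from the last place in WT to near Kdm2b in Tnfaip2-/- EBs, and the place of Ezh2 differs between the panels.

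Ratios of paralogues within a sample do not depend on library size or scaling, and their change between genotypes does not depend on length. The log2 ratio of Phf19 to Mtf2 counts was -4.68, -4.84 and -4.64 in WT and -1.59, -1.45 and -1.51 in Tnfaip2-/- samples. The ratios lay in separate ranges, with a rise of 3.20 in log2 units (9.2-fold). The log2 ratio of Kdm2b to Kdm2a counts was 0.51, 0.55 and 0.54 in WT and -0.44, -0.43 and -0.46 in Tnfaip2-/- samples. Kdm2a thus had the larger count in each Tnfaip2-/- sample, but its merged exons are also longer (14.4 against 10.9 kb). Per length, the means in Tnfaip2-/- EBs were 18.5 for Kdm2b and 18.9 for Kdm2a. For Rnf2 to Ring1 the mean log2 ratio went from 2.82 ± 0.0523 to 3.51 ± 0.0468 (SD, n = 3), and for Cbx7 to Cbx2 from 2.17 ± 0.0318 to 2.41 ± 0.0721. Each of these 4 pairs gave p = 0.1 in a two-sided exact permutation test, the smallest p that 3 against 3 samples allow, and 0.125 after adjustment over the 5 pairs. The log2 ratio of Ezh1 to Ezh2 was -2.30, -2.17 and -2.15 in WT and -2.16, -2.16 and -2.17 in Tnfaip2-/- samples, which overlap (exact permutation p = 0.7, adjusted p = 0.7). Its difference of 0.04 became -0.0049 without WT replicate 1.

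The same shifts can be read as shares of a family on the per-length scale, with merged exons as the length. Phf19 made up 3.84%, 3.44% and 3.99% of the summed Polycomb-like level (Phf1, Phf19 and Mtf2) in WT and 25.0%, 26.3% and 25.7% in Tnfaip2-/- samples. The sum itself went from 71.6, 76.8 and 72.9 to 103, 101 and 104 per-length units, and the groups did not overlap. Kdm2b held 65.4%, 66.0% and 65.8% of the summed Kdm2a and Kdm2b level in WT and 49.6%, 49.7% and 49.1% in Tnfaip2-/- samples. Mean shares shifted less in the Cbx family, where Cbx7 made up 60.9% in WT and 64.0% in Tnfaip2-/- EBs while the sum fell from 105.8 to 91.4 per-length units. Phc1 kept most of the polyhomeotic sum, 93.8% in WT and 88.8% in Tnfaip2-/- EBs, although that sum fell from 306 to 162 per-length units.

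**Figure D4:**
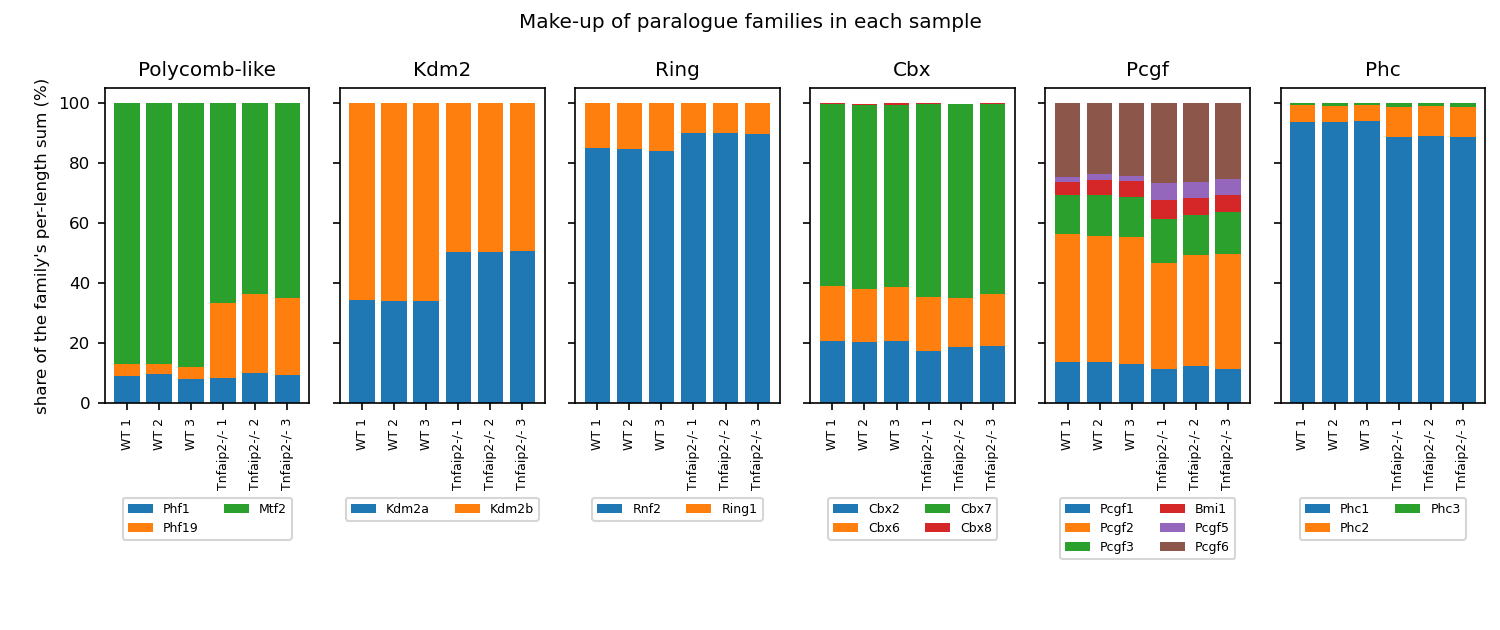
Share of each gene in the summed per-length level of its family (vertical axis, %, stacked bars from 0 to 100) in each of the 3 WT and 3 Tnfaip2-/- samples, for 6 paralogue families, of which only genes at more than 0.1% on average are drawn. The Phf19 share is near 4% in each WT sample and near 26% in each Tnfaip2-/- sample, and the Kdm2b share falls from near 66% to below 50%.

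Beyond the 10 subunits, a list of other PRC2, PRC1, PR-DUB, lysine 27 demethylase and MLL genes held 60 genes, of which 59 were tested. Of these, 20 were called higher, 32 lower and 7 not called, or 33.9% higher and 54.2% lower, against 34.0% and 33.7% of all genes tested. The median log2 fold change was -0.16, beside 0.003 over all genes tested, and 4 of the 59 (Scml2, Ezhip, Pcgf5 and Phc1) changed at least 2-fold, against 12.0% of all genes tested.

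Within the variant PRC1 list, 4 of 13 other genes were called higher (30.8%) and 6 lower (46.2%), where 34.0% and 33.7% of all genes tested were. Fbrsl1 and Auts2, which belong to forms of PRC1 built on Pcgf3 or Pcgf5, were lower, with log2 fold changes of -0.66 (SE 0.0367, edgeR adjusted p = 6.45e-21) and -0.53 (SE 0.0615, edgeR adjusted p = 2.61e-10). In PR-DUB, the complex that removes the PRC1 mark from histone H2A, 7 of 10 genes were called lower and 3 higher, beside 33.7% and 34.0% of all genes tested. Asxl3 (-0.94, SE 0.162, edgeR adjusted p = 2e-06) and Foxk1 (-0.72, SE 0.0545, edgeR adjusted p = 4.58e-16) fell most by log2 fold change. Ogt, which adds GlcNAc to proteins, rose by a log2 fold change of 0.58 (SE 0.0257, edgeR adjusted p = 1.47e-24).

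The genes that oppose PRC2 moved in both directions. Of the lysine 27 demethylases, the X-linked Kdm6a and its Y-linked relative Uty were higher, with log2 fold changes of 0.24 (SE 0.0363, edgeR adjusted p = 8.42e-08) and 0.68 (SE 0.0683, edgeR adjusted p = 3.62e-12), and Kdm6b was lower, with -0.41 (SE 0.0433, edgeR adjusted p = 1.56e-11). Among the MLL genes, which methylate lysine 4 of histone H3, 4 of 10 were called higher and 5 lower, beside 34.0% and 33.7% of all genes tested. Dpy30, a core subunit of all MLL complexes, was at 140, 135 and 141 CPM in WT and at 72.1, 73.2 and 69.3 CPM in Tnfaip2-/- samples. It was lower in all Tnfaip2-/- samples than in any WT sample, with a log2 fold change of -0.95 (SE 0.0332, edgeR adjusted p = 1.54e-28). Paxip1 fell by 0.77 (edgeR adjusted p = 2.5e-17) and Wdr5 fell by 0.19 (edgeR adjusted p = 5.28e-08) on the log2 scale.

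Genes that PRC2 is known to cover in ESCs were looked at as a list of 36, though histone marks were not measured in these samples. Of the 26 tested, 17 were called lower (65.4%), 6 higher (23.1%) and 3 were not called, against 33.7% lower and 34.0% higher among all genes tested, with a median log2 fold change of -1.02 beside 0.003 over all genes tested. Cdx2 and Atoh1 had at most 3 counts in each Tnfaip2-/- sample. Set to 3 counts there, they were still 11.6-fold and 6.29-fold lower than in WT. Both thus stayed below the median, which could not move. The summed level of the list was 165, 166 and 165 CPM in WT and 105, 104 and 109.8 CPM in Tnfaip2-/- samples. T, which encodes Brachyury, was the most abundant of them in WT and Eomes in Tnfaip2-/- EBs. T fell from 774, 732 and 866 counts to 5, 3 and 1 counts, a log2 fold change of -7.95 (SE 0.157, edgeR adjusted p = 3.15e-38). Evx1 fell from 109, 114 and 119 counts to 5, 4 and 6 counts, a log2 fold change of -4.44 (SE 0.232, edgeR adjusted p = 8.98e-22). Hoxb1 fell from 129, 111 and 127 counts to 7, 6 and 9 counts, a log2 fold change of -4.00 (SE 0.212, edgeR adjusted p = 1.52e-21). These 3 genes act in the primitive streak or in axial patterning, and nearly all of their RNA was missing from the Tnfaip2-/- EBs. Cdx2, picked by value, had 42, 37 and 28 counts in WT and 1, 2 and 0 in Tnfaip2-/- EBs.

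The target genes called higher included Cdkn2a and Cdkn2b, neighbouring cell cycle inhibitors that Polycomb silences in proliferating cells, which were picked after their values were seen. Cdkn2a had 42, 37 and 48 counts in WT and 114, 132 and 112 in Tnfaip2-/- samples. Its groups did not overlap, with a log2 fold change of 1.53 (SE 0.144, edgeR adjusted p = 5.3e-13), and that of Cdkn2b was 1.81 (SE 0.317, edgeR adjusted p = 2.39e-06) from counts of 33 or fewer. The 10 target genes below the filter were not tested, and 5 of them were at or under 3 counts in every sample.

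**Figure D5:**
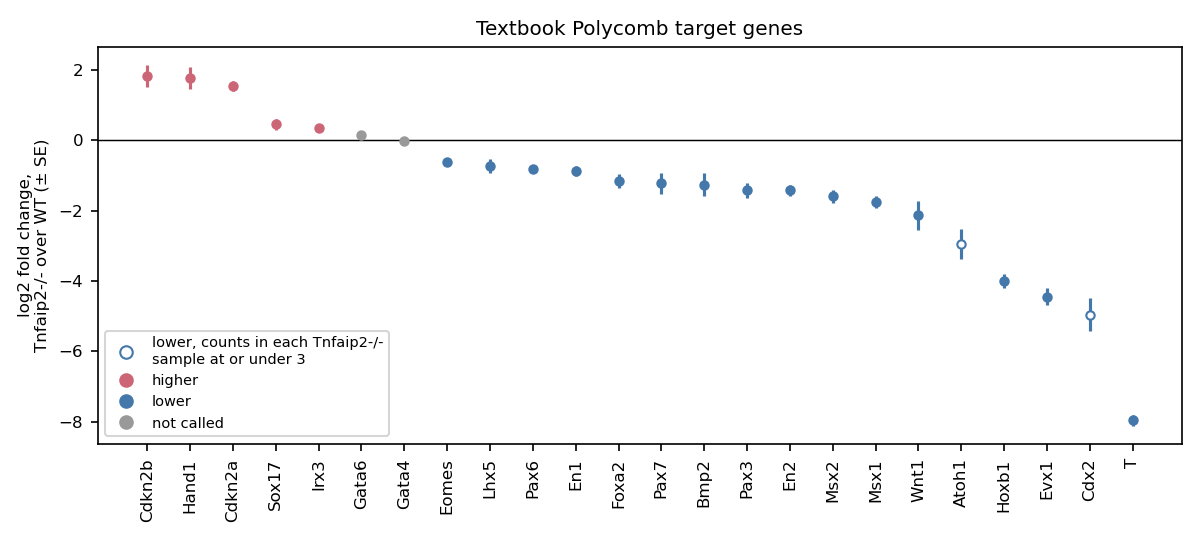
Log2 fold change (Tnfaip2-/- over WT, vertical axis, with the SE as bars) of Polycomb target genes that passed the filter, not all of them drawn, ordered by value, with open points where all Tnfaip2-/- samples had at most 3 counts and the fitted value is no bound. Most points lie below 0, down to -7.95 for T, and Cdkn2b (1.81) and Cdkn2a (1.53) are among those above 0.

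Levels of cell type markers differed between the genotypes as well, in a comparison where 34.0% of all genes tested were called higher and 33.7% lower. All 8 pluripotency markers averaged 18.6 CPM or more in both, with 4 called higher and 4 lower, and their summed level was 2805, 2756 and 2844 CPM in WT and 2318, 2307 and 2281 CPM in Tnfaip2-/- samples, with Dppa5a most abundant. Of 6 formative and primed markers, 5 were lower and Otx2 was not called, and the sum was 1099, 1095 and 1090.5 CPM in WT, led by Dnmt3b, and 557, 550.4 and 554 CPM in Tnfaip2-/- samples, led by Otx2. The 9 markers of cycling cells summed to 3376, 3408 and 3386 CPM in WT, led by Mcm5, and to 3521.5, 3481 and 3532 CPM in Tnfaip2-/- samples, led by Top2a, with 3 called higher and 6 lower. Neither group lacked any marker of these 3 lists.

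The summed level was lower in Tnfaip2-/- than in WT samples for fibroblast and extraembryonic endoderm markers, and higher for trophoblast markers through Tfap2c. The calls in these lists again stand beside 34.0% higher and 33.7% lower among all genes tested. The 8 fibroblast markers summed to 8.65, 10.0 and 8.64 CPM in WT and to 5.81, 6.3 and 6.85 CPM in Tnfaip2-/- samples, led by Thy1, with 2 of 4 tested lower and with Lum and Fap at or under 3 counts throughout. For 8 extraembryonic endoderm markers the sums were 72.6, 72.0 and 73.5 CPM in WT and 62.8, 61.0 and 64.0 CPM in Tnfaip2-/- samples, led by Dab2, with 2 called higher and 4 lower. For 6 trophoblast markers they were 54.0, 52.7 and 50.65 CPM in WT, led by Eomes, and 193, 188 and 193 CPM in Tnfaip2-/- samples, led by Tfap2c, with 2 of 4 tested higher, 2 lower and Elf5 at or under 3 counts. Mean Tfap2c was 21.7 CPM in WT and 171 CPM in Tnfaip2-/- EBs, whereas mean Eomes fell from 28.4 to 18.5 CPM and Cdx2 nearly vanished. The target list shares Cdx2 and Eomes with the trophoblast list, and Gata4, Gata6 and Sox17 with the endoderm list. The part of these marker differences in the levels of the Polycomb subunits was not tested.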

How the data were processed

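The authors mapped reads to GRCm38 with TopHat2 2.1.0, counted uniquely mapped reads per gene with featureCounts 1.5.0 (versions from the submitters' processing notes), and deposited these counts without normalization. The strand setting is not given in the sources used here. No row lacked a gene identifier. Samples were grouped by genotype from their labels. Genes were filtered (minimum count 10, minimum total 15), scaled by TMM and tested by quasi-likelihood (robust) in edgeR 4.0.16 in R 4.3.3, with Benjamini-Hochberg adjustment over 17849 genes. The SE is the log2 fold change divided by the root of F. A floor of 3 counts covers counting error only. DESeq2 1.42.0, other scalings, filters and tests, the replicate block and leaving out each sample were alternatives. Lengths, exon overlaps and positions came from GENCODE, promoters from RefSeq.

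Members and gene lists were chosen with earlier results of these data known. Named were all members, their paralogues, Aebp2, the 3 genes of each list with the largest called change that averaged 1 CPM or more, the 3 genes most like Phf19 and the most abundant of each marker list. Other genes were picked by value, or because they overlap a named gene, are shared by 2 lists or lie at the floor.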

Additional observations from a re-analysis of the deposited data

How the results depend on the processing

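The counts of called genes kept within 1.5 times under each alternative except the test against a fold change of 1.5, by whose construction small changes do not pass. With it 2798 genes were called in place of 12084, 1 subunit higher (Phf19) and 1 lower (Kdm2b), and 4 genes of the wider list higher and 6 lower. Leaving out each sample in turn gave 4 to 7 subunits higher and 2 lower throughout. Of 42 tested genes (members, paralogues and the genes named from lists, without the 3 most like Phf19, which were not rerun), 36 kept their direction and call in all other alternatives; Ezh1, Ezh2, Mtf2, Rnf2, Cbx8 and Kdm2a did not. The log2 fold change of Mtf2 was -0.0056 without the filter and -0.013 to 0.032 when samples were left out, and that of Kdm2a -0.0081 to 0.031. The Ezh1/Ezh2 log2 ratio changed by 0.04, and by -0.0049 to 0.071 when samples were left out. The causes were not tested. Cbx8 has no value at a minimum count of 50, since it was filtered out. The other ratios kept their direction of change when samples were left out. That of Cbx7 to Cbx2 changed by 0.20 to 0.27 log2 units, where its SD was 0.0318 in WT and 0.0721 in Tnfaip2-/- samples. No scaling moved the median of all genes by more than 0.026.

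The replicate numbers did not pair the samples: deviations of same-numbered samples correlated at -0.042, -0.042 and -0.046. With the replicate block, 11841 genes were called, with 6 subunits higher and 2 lower. Longest transcripts moved 19 of 20 per-length levels by more than 1 SD.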

Other observations

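The nearest tested genes that averaged 1 CPM or more on each side of the 8 called subunits were looked at after the other values had been seen. Of these 16 neighbours, 7 had the same call as the subunit, 6 the opposite call and 3 were not called, where 34.0% of all genes tested were called higher and 33.7% lower. Both neighbours matched for Phf19, Kdm2b and Jarid2, but those of Kdm2b share exon bases with it on the opposite strand, and the libraries do not tell strands apart. Of those of Jarid2, Dtnbp1 lay 432 bp away and Mcur1 1169283 bp away. Traf1, beside Phf19, averaged 1 CPM or more only through the Tnfaip2-/- samples. Its place in this tally thus depends on its own rise, and no conclusion is drawn from its match. Traf1, which lies 27724 bp from Phf19, had 16, 15 and 15 counts in WT and 80, 70 and 72 in Tnfaip2-/- samples, a log2 fold change of 2.30 (SE 0.199, edgeR adjusted p = 4.27e-14). Psmd5, on the other side of Phf19, rose from 2279, 2301 and 2387 counts to 3134, 2860 and 2962, a log2 fold change of 0.40 (SE 0.0312, edgeR adjusted p = 1.46e-15). Cbx7 fell while its neighbour Pdgfb had 40, 34 and 52 counts in WT and 186, 198 and 190 in Tnfaip2-/- samples, a log2 fold change of 2.22 (SE 0.129, edgeR adjusted p = 4.58e-20).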
